A study of Homo sapiens with 18 samples.

Results

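AP-1 is a family of dimeric transcription factors, and 10 genes that encode its subunits or close relatives, JUN, JUNB, JUND, FOS, FOSB, FOSL1, FOSL2, ATF3, BATF3 and MAFF, were followed through TGFβ-induced epithelial-mesenchymal transition (EMT) in lung cancer cells. The genes were chosen by symbol with earlier results of these data known, and all 10 were found among the 19849 genes measured. Counts over the 10, set beside shares of all genes, are therefore a description only. Expression was profiled on 18 Affymetrix U133 Plus 2.0 arrays in 6 groups of 3, namely parental and mesenchymal cells of the lines A549, HCC827 and NCI-H358, which are established human non-small cell lung cancer lines. HCC827 carries mutant EGFR. The mesenchymal groups, labelled EMT, had been grown with 2 ng/ml TGFβ, a cytokine that induces EMT, over 3 weeks according to the sample labels, although the methods give a range of weeks that differed by line. All groups shared the same medium with serum and glutamine, and the mesenchymal cells were moved to medium without TGFβ on the day before lysis. The parental cells stand for untreated cells, and whether they were carried in culture for the same time is not given in the sources used here. Each line is 1 genetic background, and the 3 samples of a group were separate biological samples made at the same time, so the p-values measure the spread between such samples only.

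AP-1 proteins carry a basic region that contacts DNA and a leucine zipper through which they pair. JUN proteins form homodimers or pair with FOS proteins, whereas FOS proteins need a JUN partner, and the dimers bind the TPA response element (TRE, TGACTCA) or the related cyclic AMP response element (CRE, TGACGTCA). Mitogen-activated protein kinases and growth factors induce many of the genes within minutes, and in epithelial tumours AP-1 is known for driving proteases, cytokines and other genes of invasion and wound repair.

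Because JUN and its relatives are known to act on AP-1 sites near gene starts, the promoters that could be read are shown before the values. RefSeq promoter windows of 300 bases, from 250 before to 50 after a transcription start on GRCh38.p14, were given for 8 of the 10 genes, with 10 windows in all. FOSL1 and BATF3 had none in the table used. Both strands of 35116 windows were searched for TRE (TGACTCA or its reverse complement TGAGTCA, in 4.95% of windows), CRE (TGACGTCA, 1.85%), TGACATCA (2.61%) and TTACCTCA (0.715%), of which the last 2 are the forms known from the JUN promoter and no match overlapped another in the windows of the 10 genes. JUN held TGACATCA at 67 and TTACCTCA at 186 bases before the start. ATF3 held TGACATCA at 123, JUND held CRE at 200 and MAFF held CRE at 54 bases before the start, and FOSL2 held a TRE at 4 bases after it. No match was found in the windows of JUNB, FOS and FOSB, which says only that these letters are not in those windows. The 5 matches upstream of a start are printed 5′ to 3′ on the strand of the gene, with the motif in capitals, so that they can be set beside the sites of the target genes printed further on.
JUN, chr1:58784098-58784123, minus strand: gccttggggTGACATCAtgggctatt
JUN, chr1:58784217-58784242, minus strand: agcggagcaTTACCTCAtcccgtgag
ATF3, chr1:212565275-212565300, plus strand: cctatgataTGACATCAtatggccac
JUND, chr19:18281806-18281831, minus strand: ccgcccccaTGACGTCAacccacaag
MAFF, chr22:38201931-38201956, plus strand: ccgggtcggTGACGTCAccgcatgac

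The authors' values are log2 levels after robust multi-array averaging (RMA), with 1 probe set for each gene, so that a step of 1 is a doubling of signal. Levels of different genes are not compared here, apart from marking dim or very low probe sets. The values used here carry no detection call, so changes from low levels are differences of RMA values rather than exact folds. Array medians lay between 6.31 and 6.47. The standard deviation of log2 differences between arrays of a group was 0.163 to 0.282, and that between parental and mesenchymal arrays of a line was 0.719 to 0.896. EPCAM, CDH1, KRT8, KRT18 and KRT19, which mark epithelial cells, fell in all 3 lines, as 6.14% of all genes did. The mesenchymal markers VIM, CDH2, FN1, ZEB1 and SNAI1 rose in all 3, as 4.31% of all genes did. Group means ran from 3.55 to 6.37 for VIM and from 5.22 to 6.53 for SNAI1. Those of VIM all lay below 6.39, the median of all group means over all genes, so its probe set was dim. CDH1 fell by 5.81, 2.95 and 3.94 on the log2 scale in A549, HCC827 and NCI-H358, KRT19 changed by -3.19, -3.57 and -4.87, and EPCAM fell by 3.03, 2.69 and 2.92. ZEB1 rose by 0.79, 4.18 and 3.66 in the same order, FN1 by 3.11, 3.98 and 1.99, and CDH2 by 1.94, 3.26 and 2.04. The lung lineage factor NKX2-1 had a mean log2 level of only 3.67 in parental A549 cells, against 9.18 in HCC827 and 8.62 in NCI-H358, and the surfactant gene SFTPB lay between 5.57 and 5.84 in every group. The keratin KRT7 fell in HCC827 and NCI-H358 but not in A549. Of 6 markers of blood and endothelial cells, 1 rose in A549 (CD68), 2 rose (PECAM1 and KDR) and 1 fell (CD68) in HCC827, and 1 rose in NCI-H358, where KDR went up by 1.60 to a mean level of 6.20. Group means of the pan-leukocyte gene PTPRC lay between 2.83 and 3.18, and no change was called for it or CD3E. The parental array listed first in each line has a title number outside the run of the other arrays of its line, and the changes of JUN, JUNB, FOSL1, FOSL2, FOS and BATF3 in HCC827 are given with and without these arrays. In RNA from whole cultures, fewer cells expressing a gene and less RNA per cell cannot be told apart.

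At an adjusted p below 0.05 in limma, with Benjamini-Hochberg adjustment over all 19849 genes, 8 of the 10 genes changed after EMT in A549, where 43.4% of all genes did. In HCC827 8 of 10 changed beside 45.8% of all genes, and in NCI-H358 5 of 10 beside 41.4%. In A549 5 rose (16.6% of all genes) and 3 fell (26.8%), in HCC827 3 rose (20.8%) and 5 fell (25%), and in NCI-H358 3 rose (21.5%) and 2 fell (19.8%). FOSL2, JUN and JUNB rose in all 3 lines, as 4.31% of all genes did, and FOSL1 fell in all 3, as 6.14% did. Each of the 10 changed in at least 1 line, as did 68.8% of all genes. BATF3 in HCC827 was the only call at the thresholds of the study, more than 5-fold with an adjusted p under 1e-05, beside 1.9%, 2.95% and 2.17% of all genes in A549, HCC827 and NCI-H358. The median log2 change over the 10 genes was 0.22, -0.22 and -0.05 in the same order, against -0.02, 0.01 and 0.02 over all genes. With a fold of 2 also asked for, 2 of 10 genes were called in A549 (8.02% of all genes), 4 in HCC827 (11.5%) and 2 in NCI-H358 (9.38%). Of the 10, only JUN was past it in all 3. The share of all genes past it in all 3 is not given, so this is a description only. The A549 count rested on single arrays. Without A549 parental replicate 1 both JUN and MAFF fell short and FOSL1 alone was past the fold, so that 0 genes passed it in all 3 lines. Without A549 parental replicate 2 or mesenchymal replicate 2 or 3 JUN alone passed in A549, and without mesenchymal replicate 1 JUN, JUNB and MAFF did. The 10 genes thus differed in direction by gene and by line.

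**Figure D1:**
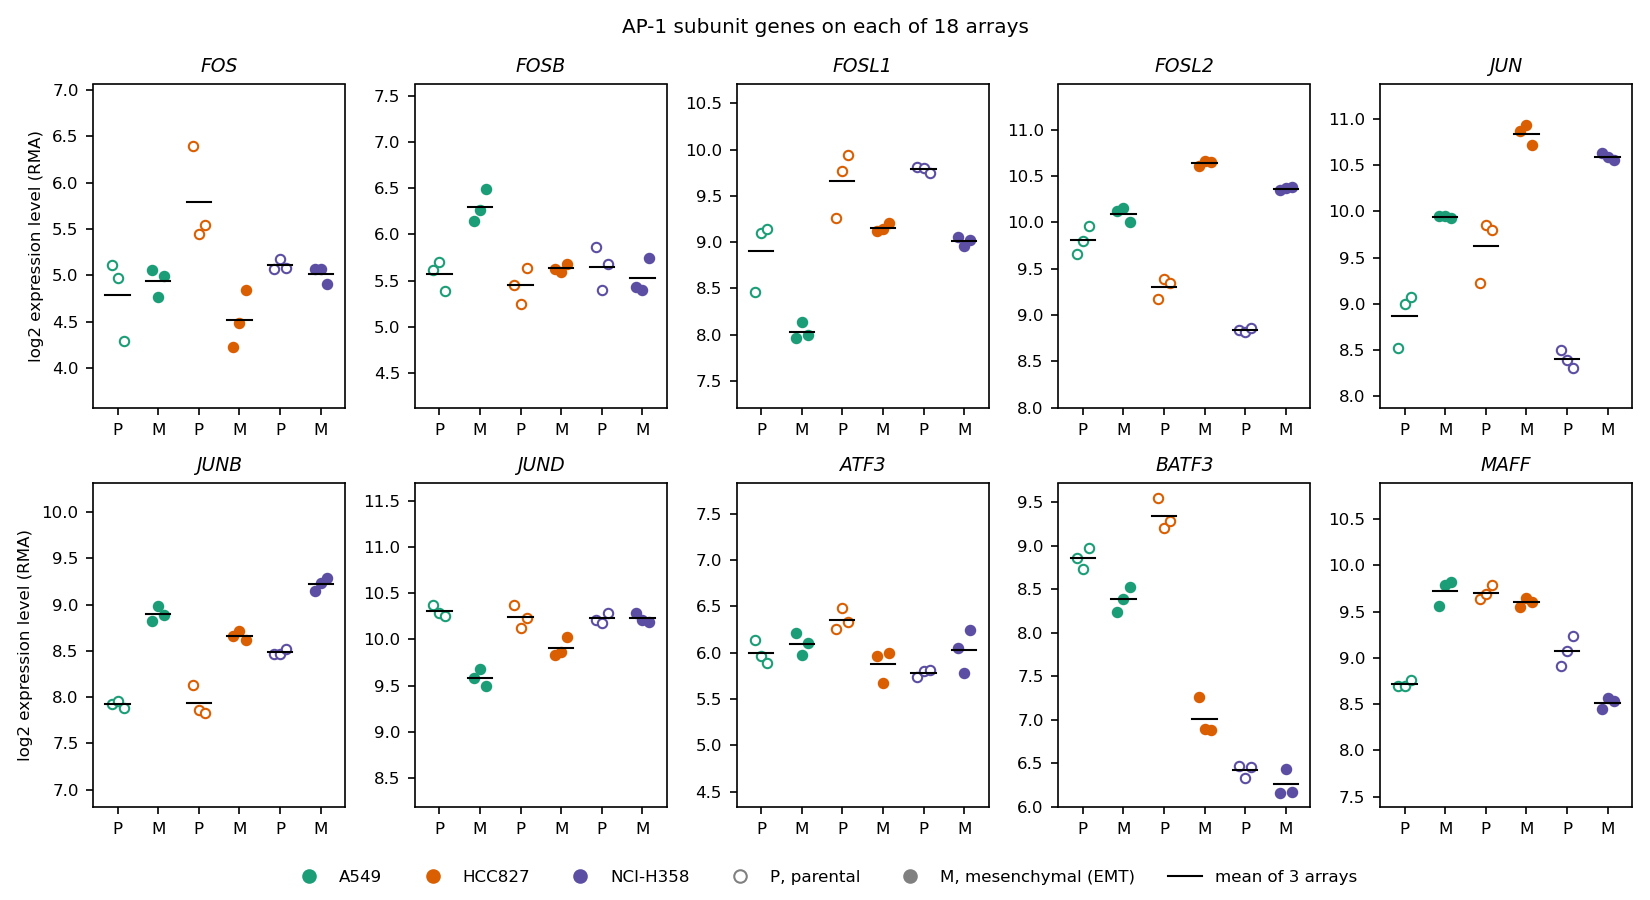
Log2 expression level after RMA (vertical axis, its own range in each panel) of the 10 AP-1 genes on each of the 18 arrays, with parental arrays (P, open) and mesenchymal arrays (M, filled) of A549, HCC827 and NCI-H358 in colour and the mean of 3 arrays as a line. JUN, JUNB and FOSL2 lie higher on every mesenchymal array than on any parental array of the same line, FOSL1 lies lower, and BATF3 drops in HCC827 from 9.21 or more to 7.26 or less. The share of all genes with groups apart in this way is not given.

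JUN (Entrez gene 3725) encodes c-Jun, the founding subunit of AP-1 and the substrate of the JUN N-terminal kinases. Its log2 levels were 8.52, 8.999 and 9.08 on the parental A549 arrays and 9.95, 9.95 and 9.92 on the mesenchymal arrays. In HCC827 they were 9.22, 9.85 and 9.79 before and 10.87, 10.93 and 10.72 after EMT, and in NCI-H358 8.50, 8.40 and 8.31 before and 10.63, 10.58 and 10.55 after. The groups did not overlap in any line. Here and below, whether groups overlapped is a description only, since the share of all genes with groups apart is not given. The parental cells of NCI-H358 were the lowest of all groups although the mesenchymal cells of that line were among the 2 highest. JUN rose by 1.07 in A549 (SE 0.15, limma adjusted p = 1.23e-05). The rise was 1.22 for HCC827 (limma adjusted p = 2.21e-06), and NCI-H358 reached 2.19 (adjusted p = 1.78e-09). In folds these were 2.11, 2.32 and 4.55 times the parental level, and the 95% interval of the rise in A549 began at 0.76, below a doubling. The rise in NCI-H358 exceeded that in A549 by 1.11 (limma adjusted p = 0.000318) and that in HCC827 by 0.97 (adjusted p = 0.00122). The rises in A549 and HCC827 were not shown to differ, with a difference of 0.14 and a 95% interval from -0.30 to 0.58. The first parental array stood 0.52 below the mean of the other 2 in A549 and 0.60 below in HCC827, whereas those other 2 arrays differed by 0.08 and 0.06. Without the 3 arrays numbered apart the rises were 0.90, 1.02 and 2.23, all still called, and the fold in A549 was then 1.87. In the order of the 6 group means, mesenchymal HCC827 and NCI-H358 stood highest and were not shown to differ (gap 0.25, limma adjusted p = 0.175), followed by mesenchymal A549, which was not shown to differ from parental HCC827 (gap 0.32, adjusted p = 0.0703). Parental A549 and then parental NCI-H358 followed, each below the group before it.

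JUNB (Entrez gene 3726) encodes a JUN protein that activates less strongly than c-Jun at many sites and can oppose it, and that is known as an early target of TGFβ signalling. The parental A549 arrays read 7.93, 7.96 and 7.88 and the mesenchymal ones 8.82, 8.99 and 8.89. HCC827 gave 8.13, 7.86 and 7.82 before and 8.66, 8.71 and 8.62 after EMT, and NCI-H358 8.46, 8.47 and 8.52 before and 9.14, 9.23 and 9.29 after. Each mesenchymal array was above each parental array of its line. JUNB rose by 0.98 in A549 (SE 0.08, limma adjusted p = 1.57e-08), by 0.73 in HCC827 (adjusted p = 4.72e-07), while NCI-H358 gained 0.74 (adjusted p = 4.70e-07). These are 1.97-fold, 1.66-fold and 1.67-fold rises, the most even among the 3 genes that rose in every line. The first HCC827 parental array stood 0.29 above the mean of the other 2, which differed by 0.03, and without the 3 arrays numbered apart JUNB rose by 0.82 in HCC827. No difference between lines was called for JUNB. HCC827 minus A549 was -0.25 (95% interval -0.48 to -0.02, limma adjusted p = 0.0751), NCI-H358 minus A549 was -0.24 (-0.47 to -0.01, adjusted p = 0.0906), and NCI-H358 minus HCC827 was 0.01 (-0.22 to 0.24, adjusted p = 0.949). The first of these passed in limma without HCC827 parental replicate 3 (adjusted p = 0.0359), and the second without HCC827 parental replicate 1 (adjusted p = 0.0283). By group mean the order ran from mesenchymal NCI-H358 through mesenchymal A549 and mesenchymal HCC827 to parental NCI-H358, and ended with parental HCC827 and A549. Of its 5 neighbouring pairs 3 differed, and the pairs not shown to differ were mesenchymal HCC827 with parental NCI-H358 and parental HCC827 with parental A549.

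JUND (Entrez gene 3727) encodes the JUN protein that is present in most resting cells, and it went the other way. Its parental levels were alike in the 3 lines, at 10.38, 10.28 and 10.26 in A549 and 10.37, 10.13 and 10.23 in HCC827, with NCI-H358 at 10.22, 10.18 and 10.29. The mesenchymal arrays read 9.58, 9.68 and 9.49 in A549 and 9.83, 9.86 and 10.03 in HCC827, with NCI-H358 at 10.29, 10.21 and 10.19. The groups were apart in A549 and HCC827 and overlapped in NCI-H358. JUND fell by 0.72 in A549 (SE 0.08, limma adjusted p = 6.43e-07) and by 0.34 in HCC827 (adjusted p = 0.0014). In NCI-H358 the change was 8.3e-05, with a 95% interval from -0.16 to 0.16, so a fall of the size seen in A549 lay outside it. All differences between lines were called, with HCC827 0.38 (limma adjusted p = 0.00809) and NCI-H358 0.72 (adjusted p = 3.67e-05) above A549, and NCI-H358 0.34 above HCC827 (adjusted p = 0.0203). The last of these was not called in limma without the 3 arrays numbered apart (0.27, adjusted p = 0.0811), nor without HCC827 mesenchymal replicate 1 (0.30, adjusted p = 0.0559) or NCI-H358 mesenchymal replicate 1 (0.31, adjusted p = 0.0532). The 3 parental groups and mesenchymal NCI-H358 headed the order of means with no neighbours among them shown to differ, whereas mesenchymal HCC827 lay below them and mesenchymal A549 lower again.

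FOSL2 (Entrez gene 2355) encodes Fra-2, a FOS protein that lacks the strong activation domain of c-Fos. It read 9.66, 9.80 and 9.96 in parental and 10.13, 10.16 and 10.00 in mesenchymal A549 cells. In HCC827 it read 9.18, 9.38 and 9.34 before and 10.61, 10.66 and 10.65 after EMT, and in NCI-H358 8.83, 8.82 and 8.86 before and 10.35, 10.37 and 10.38 after. The gap between the groups was narrow in A549, where the highest parental array lay just under the lowest mesenchymal array, and wide in the other lines. FOSL2 rose by 0.29 in A549 (SE 0.08, limma adjusted p = 0.00524), by 1.34 in HCC827 (adjusted p = 1.45e-10), while NCI-H358 gained 1.53 (adjusted p = 3.39e-11). As folds the rises were 1.22, 2.53 and 2.88. The first parental array lay below the mean of the other 2 by 0.22 in A549 and 0.19 in HCC827, and without the 3 arrays numbered apart FOSL2 rose by 0.21 in A549 and 1.28 in HCC827. The rise in A549 was smaller than that in HCC827 by 1.05 (limma adjusted p = 4.52e-07) and than that in NCI-H358 by 1.24 (adjusted p = 6.47e-08), and the rises in HCC827 and NCI-H358 were not shown to differ (0.19, 95% interval -0.04 to 0.42). FOSL2 was the only gene of the 10 in which all 5 neighbouring pairs of group means differed. The parental order, A549 above HCC827 above NCI-H358, was not the mesenchymal order, HCC827 above NCI-H358 above A549, and every mesenchymal group stood above every parental group.

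FOSL1 (Entrez gene 8061) encodes Fra-1, a FOS protein whose level follows ERK signalling and which is known to be abundant in many carcinoma cells. Its levels were 8.47, 9.09 and 9.14 in parental and 7.96, 8.14 and 7.99 in mesenchymal A549 cells. HCC827 arrays read 9.27, 9.77 and 9.95 before and 9.12, 9.14 and 9.21 after EMT, and NCI-H358 arrays 9.81, 9.80 and 9.75 before and 9.05, 8.96 and 9.03 after. No parental array fell below a mesenchymal array of its line, although the first HCC827 parental array, at 9.27, came close to the highest mesenchymal array, at 9.21. FOSL1 fell by 0.87 in A549 (SE 0.16, limma adjusted p = 0.000258). For HCC827 it fell by 0.51 (limma adjusted p = 0.0147), and in NCI-H358 it fell by 0.77 (adjusted p = 0.000729). The parental levels were thus 1.83, 1.42 and 1.71 times the mesenchymal ones. The first parental array was 0.65 below the mean of the other 2 in A549 and 0.59 below in HCC827, and 0.03 above in NCI-H358. Without the 3 arrays numbered apart FOSL1 fell by 1.09, 0.71 and 0.76. In HCC827 the call was lost when parental replicate 2 (limma adjusted p = 0.0574) or 3 (adjusted p = 0.0878) was left out, and the count of genes lower in all 3 lines then became 0. No difference of the fall between lines was called with all arrays. Leaving out A549 parental replicate 1 alone gave a called difference of 0.58 between HCC827 and A549 (limma adjusted p = 0.0179). Without the 3 arrays the fall in A549 exceeded that in HCC827 by 0.38 (limma adjusted p = 0.00972) and that in NCI-H358 by 0.32 (adjusted p = 0.0229). In the order of means the parental NCI-H358 and HCC827 groups stood highest and mesenchymal A549 lowest, and only the steps from parental to mesenchymal HCC827 and from parental to mesenchymal A549 were differences between neighbours.

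FOS (Entrez gene 2353) and FOSB (Entrez gene 2354) are immediate early genes, whose RNA rises and decays within hours of a stimulus. Both probe sets were dim here, as no group mean exceeded the median of all group means over all genes, 6.39. FOS read 6.39, 5.44 and 5.55 in parental HCC827 cells and 4.23, 4.48 and 4.84 in mesenchymal ones. It fell by 1.28 in that line (SE 0.23, limma adjusted p = 0.00015), 2.43-fold, with no overlap between the groups. The first parental array was 0.90 above the mean of the other 2, which differed by 0.10, and without the 3 arrays numbered apart the fall was 0.98 (limma adjusted p = 0.000698). In A549 FOS read 5.11, 4.97 and 4.29 before and 5.06, 4.77 and 4.99 after EMT, a change of 0.15 that was not called (adjusted p = 0.652). NCI-H358 arrays read 5.06, 5.18 and 5.08 before and 5.06, 5.06 and 4.90 after, a change of -0.10 (limma adjusted p = 0.799). The groups of NCI-H358 were apart too, but only by the gap between 5.06375 and 5.06374. The change of FOS in HCC827 was 1.43 below that in A549 (limma adjusted p = 0.0016) and 1.18 below that in NCI-H358 (adjusted p = 0.0073). Parental HCC827 stood above the next group in the order of means (limma adjusted p = 0.0166), and no other neighbours were shown to differ.

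FOSB passed the test in A549 and in neither other line. Its levels in A549 were 5.62, 5.70 and 5.39 before and 6.14, 6.27 and 6.49 after EMT, a rise of 0.73 (SE 0.13, limma adjusted p = 0.000256). HCC827 read 5.46, 5.25 and 5.64 before and 5.63, 5.60 and 5.68 after (0.18, limma adjusted p = 0.298). The NCI-H358 arrays read 5.87, 5.40 and 5.69 before and 5.43, 5.40 and 5.75 after (-0.12, limma adjusted p = 0.539). These groups overlapped in HCC827 and NCI-H358 and were apart in A549. The change was smaller than that in A549 by 0.85 in NCI-H358 (limma adjusted p = 0.00146) and by 0.55 in HCC827 (adjusted p = 0.0285). The latter was not called in limma without the 3 arrays numbered apart (adjusted p = 0.051), nor when A549 parental replicate 3, A549 mesenchymal replicate 3, HCC827 parental replicate 3 or HCC827 mesenchymal replicate 2 was left out (adjusted p = 0.0553 to 0.0805). Mesenchymal A549 was the highest group, above parental NCI-H358 by 0.65 (limma adjusted p = 0.000404), and the other 5 groups were not shown to differ from their neighbours.

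ATF3 (Entrez gene 467) encodes a stress-induced partner of JUN proteins that often represses, and it was the third dim gene, with levels from 5.67 to 6.48 on the 18 arrays. It fell by 0.48 in HCC827 (SE 0.11, limma adjusted p = 0.00214), from 6.25, 6.48 and 6.34 to 5.96, 5.67 and 6.00, without overlap. A549 showed a change of 0.10 (limma adjusted p = 0.53), whereas that of NCI-H358 was 0.24 (adjusted p = 0.11), both with overlapping groups. In NCI-H358 the change was called at 0.37 (limma adjusted p = 0.016) when mesenchymal replicate 2, the lowest of its group, was left out. The change in HCC827 was below that in A549 by 0.58 (limma adjusted p = 0.00788) and below that in NCI-H358 by 0.72 (adjusted p = 0.00182). No neighbouring groups were shown to differ in the order of its means, which spanned 0.57.

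BATF3 (Entrez gene 55509) encodes a small subunit with no activation domain of its own, which pairs with JUN proteins and is best known for its part in dendritic cell development. It had the widest range of group means among the 10 genes, 3.09 on the log2 scale. The parental HCC827 arrays read 9.55, 9.21 and 9.28 and the mesenchymal ones 7.26, 6.90 and 6.88. Parental A549 arrays read 8.85, 8.74 and 8.98 and mesenchymal ones 8.24, 8.39 and 8.53. NCI-H358 arrays read 6.47, 6.33 and 6.46 before and 6.16, 6.44 and 6.18 after EMT, lower than in the other lines in either state. The NCI-H358 means, 6.42 and 6.26, lay near 6.39, the level used to mark dim probe sets. Whether this limited the change in that line was not tested. BATF3 thus stood high in 2 parental lines and low in the third, and the groups were apart in A549 and HCC827 but overlapped in NCI-H358. It fell by 2.33 in HCC827 (SE 0.12, limma adjusted p = 3.57e-11), which is 5.04-fold and barely past the fold of 5. Leaving out single arrays moved this value between -2.46 and -2.23, where a fold of 5 is 2.32 in size, and the call at the study's thresholds was lost without parental replicate 1 (-2.23), mesenchymal replicate 2 (-2.28) or mesenchymal replicate 3 (-2.27). The fall in A549 was 0.47 (limma adjusted p = 0.00369), and the change in NCI-H358 was -0.16 (adjusted p = 0.331, 95% interval -0.41 to 0.09). The change in HCC827 lay below that in A549 by 1.86 (limma adjusted p = 1.00e-07) and below that in NCI-H358 by 2.17 (adjusted p = 2.22e-08), and those in A549 and NCI-H358 were not shown to differ (0.31, 95% interval -0.04 to 0.66). The order of means ran from parental HCC827 through parental and mesenchymal A549 to mesenchymal HCC827 and then NCI-H358, with each step a difference except that between the 2 states of NCI-H358.

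The pattern of BATF3 over the 6 group means was matched most closely by DNAJC22, with a root-mean-square distance of 0.27 after each gene was centred on its own mean, and by HOXB6, with 0.31. DNAJC22 read 9.20 in parental and 6.77 in mesenchymal HCC827 cells, and HOXB6 read 7.72 and 5.79. In A549 DNAJC22 changed by 0.14 and HOXB6 by -0.35, beside -0.47 for BATF3. In NCI-H358 DNAJC22 changed by -0.20 and HOXB6 by 0.61, beside -0.16 for BATF3. The sign thus differed from that of BATF3 for DNAJC22 in A549 and for HOXB6 in NCI-H358. DNAJC22 and HOXB6 were picked by the root-mean-square distance, and 6 group means of 3 lines are few points.

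MAFF (Entrez gene 23764) encodes a small Maf protein, a leucine zipper factor with no activation domain that pairs with other such factors at sites that contain an AP-1 core. It changed in opposite directions in 2 lines. In A549 it read 8.69, 8.70 and 8.76 before and 9.56, 9.78 and 9.82 after EMT. NCI-H358 arrays read 8.91, 9.07 and 9.23 before and 8.44, 8.57 and 8.53 after. The groups were apart in both lines, with the mesenchymal arrays higher in A549 and lower in NCI-H358, whereas HCC827 overlapped at 9.63, 9.69 and 9.79 before and 9.55, 9.64 and 9.61 after. MAFF rose by 1.005 in A549 (SE 0.08, limma adjusted p = 3.59e-08), 2.01-fold, and fell by 0.56 in NCI-H358 (adjusted p = 3.56e-05), 1.47-fold. The change in HCC827 was -0.10 (limma adjusted p = 0.359). All differences between lines were called, with HCC827 1.11 below A549 (limma adjusted p = 9.11e-07), NCI-H358 1.56 below A549 (adjusted p = 1.46e-08) and NCI-H358 0.45 below HCC827 (adjusted p = 0.006). Mesenchymal A549 and both HCC827 groups formed the top of the order of means with no neighbours shown to differ, and mesenchymal NCI-H358 was the lowest group, not shown to differ from parental A549 (gap 0.20, limma adjusted p = 0.0507).

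**Figure D2:**
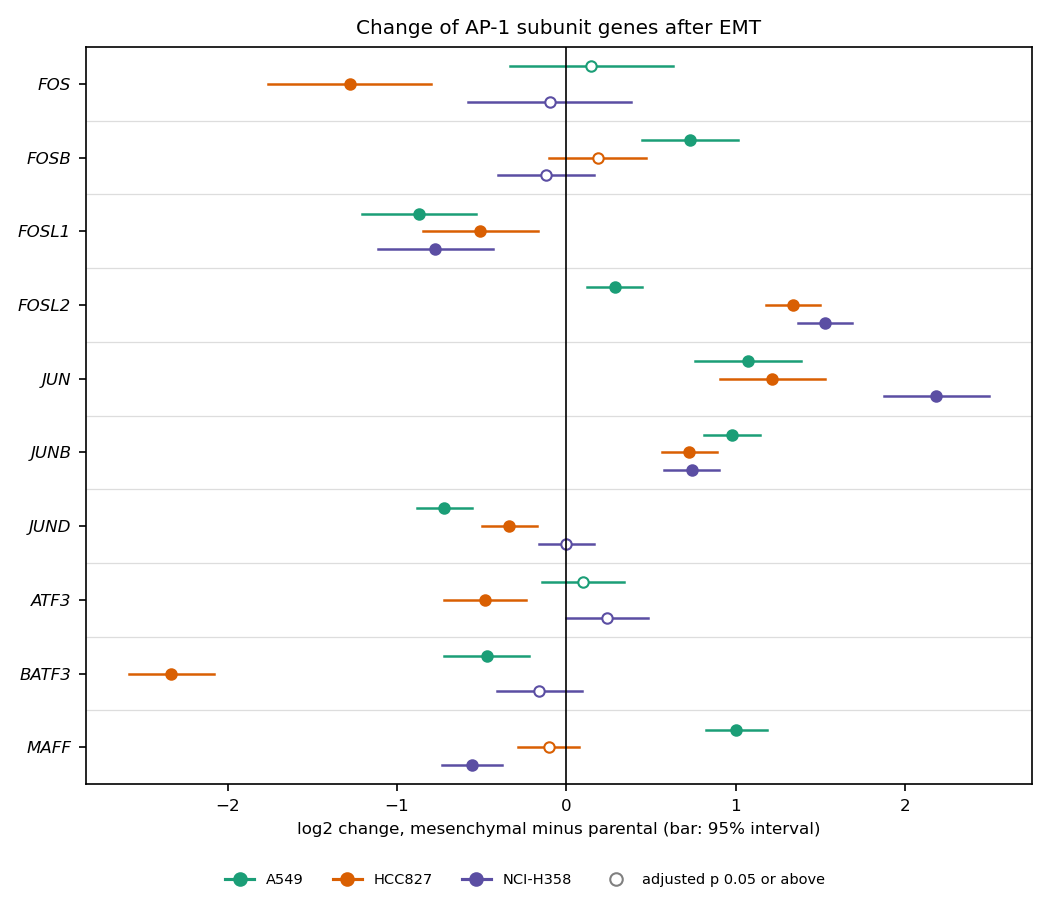
Log2 change of each AP-1 gene after EMT, mesenchymal minus parental (horizontal axis), in A549, HCC827 and NCI-H358, with the 95% interval of the limma fit as a bar and open circles for an adjusted p of 0.05 or above. JUN, JUNB and FOSL2 lie right of 0 and FOSL1 left of 0 in all 3 lines, and the change of MAFF runs from 1.005 in A549 to -0.56 in NCI-H358.

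Of the 30 differences of change between lines, 18 were called, in 8 of the 10 genes, and 60.2% of all genes had at least 1 such call. These were 7 of 10 genes for HCC827 against A549 (42.2% of all genes), 5 of 10 for NCI-H358 against A549 (42.8%) and 6 of 10 for NCI-H358 against HCC827 (37.9%). The 3 contrasts share groups and are not independent. With a fold of 2 also asked for, 4, 3 and 2 genes were called in the same order (13.4%, 12.7% and 11% of all genes), and none at the study's thresholds (2.92%, 3.01% and 2.06%). HCC827 stood apart from the other 2 lines for FOS, ATF3 and BATF3, A549 for FOSB and FOSL2, and NCI-H358 for JUN, while all lines differed for JUND and MAFF and none for JUNB and FOSL1. Over the 10 genes, 23 of 50 pairs of neighbouring group means differed, which is 46%, beside 30.5% of such pairs when every gene was put in its own order. Between fixed groups of different lines, 52.6% to 62.7% of all genes differed. Between parental cells the share was 57.1% for HCC827 against A549, 57.9% for NCI-H358 against A549 and 52.6% for NCI-H358 against HCC827. Between mesenchymal cells it was 56.6%, 58.8% and 52.6% in the same order. Mesenchymal HCC827 differed from parental A549 in 56.8% and from parental NCI-H358 in 55.7% of genes, mesenchymal NCI-H358 from parental A549 in 58.6% and from parental HCC827 in 57.4%, and mesenchymal A549 from parental HCC827 in 62.7% and from parental NCI-H358 in 61.1%.

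**Figure D3:**
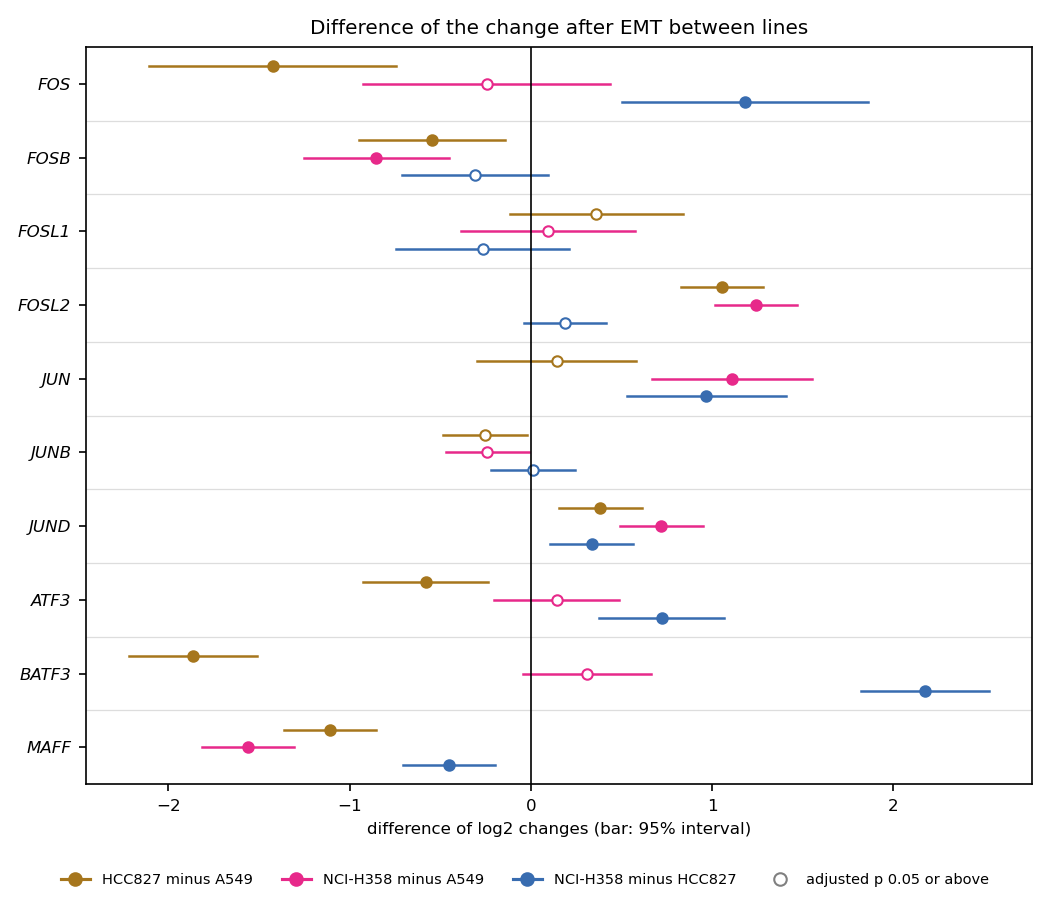
Difference of the log2 change after EMT between lines (horizontal axis) for each AP-1 gene, with 95% intervals as bars and open circles for an adjusted p of 0.05 or above. The largest values are those of BATF3, where HCC827 is 1.86 below A549 and NCI-H358 is 2.17 above HCC827. The BATF3 means in NCI-H358, 6.42 and 6.26, lie near the level of 6.39 that marks dim probe sets.

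Other genes of the pathway were read from lists, which were also chosen with earlier results of these data known. Their counts and medians, set beside those of all genes, are a description only. Among 10 of 11 listed relatives of AP-1 with a leucine zipper that were in the table, 1 rose and 3 fell in A549, 5 rose and 1 fell in HCC827, and 3 rose and 5 fell in NCI-H358. These calls are 40%, 60% and 80% of the list, beside 43.4%, 45.8% and 41.4% of all genes. MAF, a large Maf protein that binds extended AP-1 sites, was the only gene of these that rose in all 3 lines, as 4.31% of all genes did. Its mean log2 level went from 4.31 ± 0.19 to 10.02 ± 0.07 in A549, from 6.49 ± 0.07 to 9.63 ± 0.04 in HCC827 and from 5.61 ± 0.20 to 8.69 ± 0.26 in NCI-H358 (SD, n = 3). The rises were 5.71 (limma adjusted p = 8.12e-16), 3.14 (adjusted p = 1.25e-12) and 3.08 (adjusted p = 1.90e-12), larger than any change among the 10 AP-1 genes themselves. The median change of the list was 0.05, 0.44 and -0.07 in A549, HCC827 and NCI-H358.

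Of 16 kinases and coactivators upstream of AP-1, 2 rose and 7 fell in A549, 4 rose and 6 fell in HCC827, and 5 rose and 5 fell in NCI-H358, with medians of -0.13, -0.15 and -0.05. The list was called at 56.2%, 62.5% and 62.5%, where all genes stood at 43.4%, 45.8% and 41.4%. None passed the thresholds of the study. MAP3K1, a kinase at the head of the JNK cascade, and RPS6KA1, a kinase downstream of ERK, fell in all 3 lines. Of all genes 6.14% did so. Both kinases were picked out after their values were seen. MAP3K1 fell by 1.005, 1.72 and 0.50 in A549, HCC827 and NCI-H358, and RPS6KA1 by 0.83, 0.39 and 0.73. None of the 16 rose in all 3.

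Among 21 other immediate early genes and their activators, 13 rose and 2 fell in A549, 7 rose and 5 fell in HCC827, and 7 rose and 4 fell in NCI-H358, with medians of 0.25, 0.08 and 0.05. In A549 71.4% of the list was called (43.4% of all genes), in HCC827 57.1% (45.8%) and in NCI-H358 52.4% (41.4%). NR4A3, a nuclear receptor induced by stimuli, rose by 3.26 in A549, with changes of 0.08 in HCC827 (not called) and 0.37 in NCI-H358 (called). EGR1, a zinc finger factor that is usually induced beside FOS, rose by 2.02 in A549 and fell by 2.62 in HCC827, the line in which FOS also fell, and its change was -0.05 in NCI-H358. GEM, a small GTPase, rose by 0.25, 1.34 and 2.56 in A549, HCC827 and NCI-H358. GEM, the serum response factor SRF and its partner ELK3 were the genes of this list that rose in all 3 lines. Of all genes 4.31% did so.

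The genes listed as known targets of AP-1 moved mostly upward. The list was chosen with earlier results of these data known, so its counts and medians are a description only. The share of AP-1 in these changes was not tested. Of 22 listed, 15 rose and 1 fell in A549, 15 rose and 1 fell in HCC827, and 15 rose and 2 fell in NCI-H358, with medians of 1.08, 1.21 and 0.71 against -0.02, 0.01 and 0.02 over all genes. The share called was 72.7%, 72.7% and 77.3%, beside 43.4%, 45.8% and 41.4% of all genes. Those that rose in every line were 11, among them the collagenase MMP1, the stromelysin MMP10, the urokinase receptor PLAUR, TIMP1, IL6, IL11, HMOX1, TGFB1, the connexin GJA1 and HBEGF, and the membrane linker EZR fell in every line. Over all genes 4.31% rose and 6.14% fell in every line. IL11 rose by 3.23, 6.68 and 4.56 in A549, HCC827 and NCI-H358. It is also known as a target of TGFβ signalling, and the share of AP-1 in its change was not tested. CXCL8, a neutrophil chemokine, rose by 6.78 in A549 and by 0.65 in HCC827 and fell by 1.75 in NCI-H358. IL6 rose by 6.42, 1.40 and 0.35. MMP1 went from mean log2 levels of 2.92, 3.67 and 6.88 to 6.93, 8.33 and 7.52, and the first 2 parental means are so low, near the range of PTPRC, that no fold is given. MMP9, a gelatinase, rose by 5.18 in HCC827 and 3.32 in NCI-H358 with a change of -0.30 in A549 that was not called (limma adjusted p = 0.12).

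**Figure D4:**
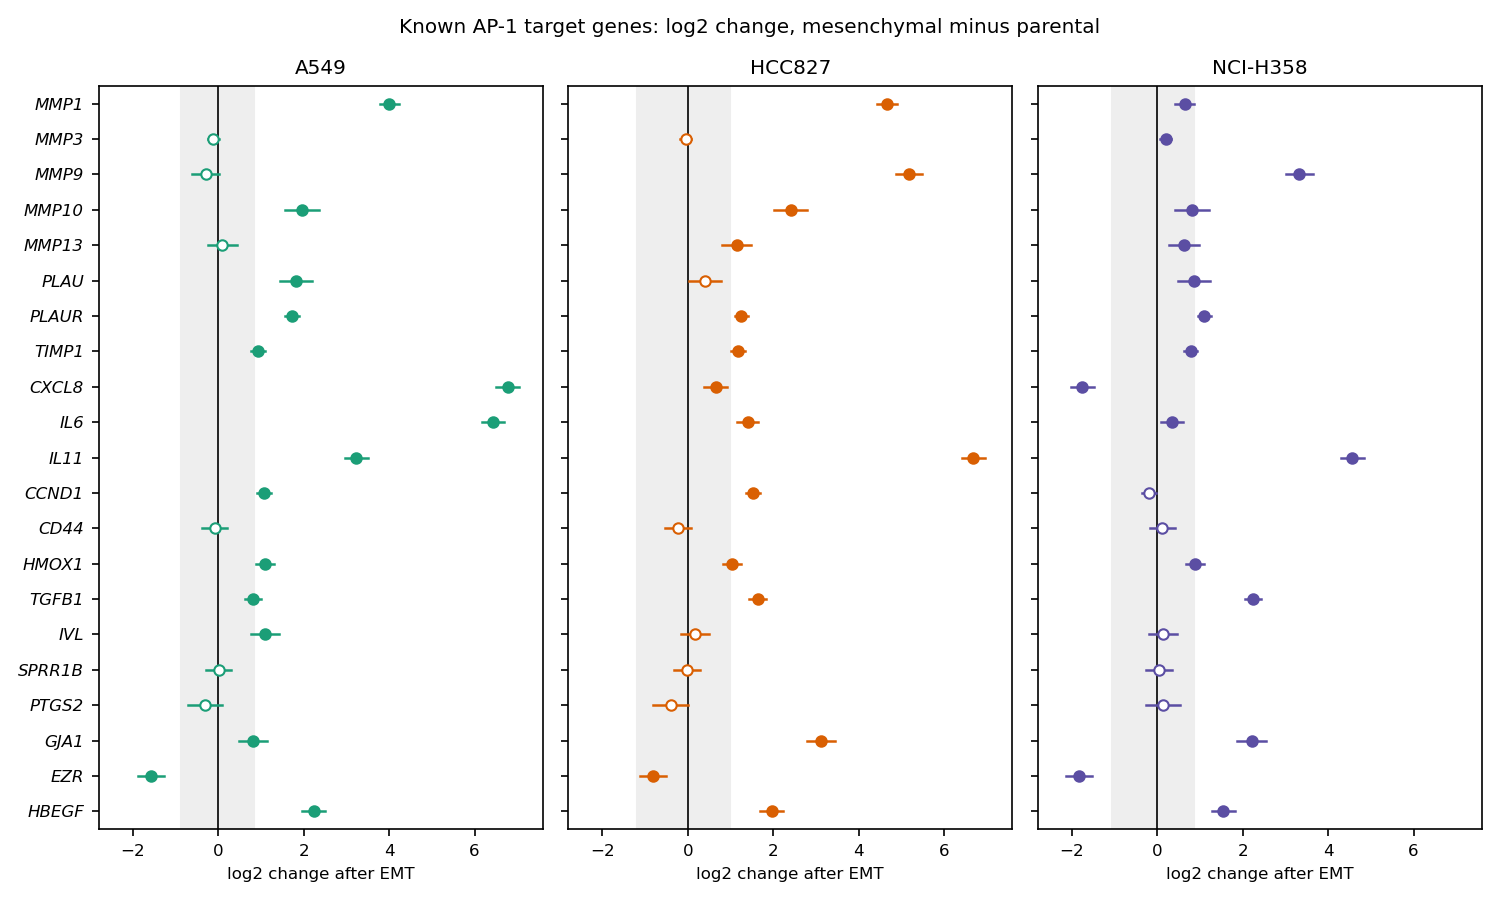
Log2 change after EMT, mesenchymal minus parental (horizontal axis), of 21 of the 22 known AP-1 target genes in each line, with 95% intervals as bars, open circles for an adjusted p of 0.05 or above, and grey bands from the 5th to the 95th percentile of all genes. Most targets lie right of 0, EZR lies left of 0 in all 3 lines, and CXCL8 runs from 6.78 in A549 to -1.75 in NCI-H358.

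Of the 22 targets, 15 had a RefSeq promoter window, with 16 windows in all, and 7 of those 15 held a TRE, whereas CRE, TGACATCA and TTACCTCA were found in none. IVL and SPRR1B, squamous genes, held the motif too and are not printed, since they were called in 1 line and in none. The others were called in all 3 lines, CXCL8 with a turn of direction, and are printed with the TRE in capitals to be set against the CRE and TGACATCA forms of JUN, JUND, ATF3 and MAFF above.
PLAUR, chr19:43670340-43670364, minus strand: acaactccaTGAGTCAgggccgagc
CXCL8, chr4:73740423-73740447, plus strand: gaagtgtgaTGACTCAggtttgccc
IL11, chr19:55370544-55370568, minus strand: cagggagggTGAGTCAggatgtgtc
GJA1, chr6:121435589-121435613, plus strand: cctcccagtTGAGTCAgtggcttga
EZR, chr6:158818276-158818300, minus strand: gcggggcgcTGACTCAcccgggccc
The motif lay 186 bases before the start in PLAUR, 137 in CXCL8, 96 in IL11, 48 in GJA1 and 56 in EZR. PLAUR rose by 1.73, 1.25 and 1.10 in A549, HCC827 and NCI-H358 and GJA1 by 0.82, 3.12 and 2.21, while EZR fell by 1.58, 0.81 and 1.83, so a TRE stood near the start of genes that rose and of a gene that fell. The rise of GJA1 in NCI-H358 began from a very low parental mean of 3.51. A match of letters is a description of the window, and occupancy was not measured.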

How the data were processed

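RNA of 18 cultures was hybridized to Affymetrix U133 Plus 2.0 arrays. The values deposited by the authors are log2 levels after RMA (version not given in the sources used here). Each of 19849 genes has 1 probe set, picked by a rule that is not given in the sources used here, and other probe sets were not analysed. Each column carried the title of 1 sample.

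The values were fitted with limma 3.58.1 in R 4.3.3 (lmFit, eBayes), in 1 model of 18 arrays and 6 groups without covariates. The authors' methods also name limma for the arrays, without giving the model. Contrasts were mesenchymal minus parental in each line, the differences of these between lines, and all pairs of groups. P-values were Benjamini-Hochberg adjusted over all genes, and a gene was called at an adjusted p below 0.05. With 3 arrays in a group the precision is limited. A two-sided exact permutation test of 3 against 3 arrays cannot go below p = 0.1 and was not used.

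The 10 members and the gene lists were chosen with earlier results of these data known. Named genes were the members, the markers, up to 6 genes per list with the largest change among those past the study's thresholds, and the 2 genes closest in pattern to a member past those thresholds. MAP3K1, RPS6KA1, SRF, ELK3, PLAUR, GJA1, EZR and the other targets that moved the same way in all 3 lines were named after their values were seen. Genes of the lists that the rule names and the text does not are not reported here. The steps were tested on simulated data. Alternatives were other thresholds, an intensity trend, array weights, a filter on dim probe sets, median centring, a fit per line, a t-test and arrays left out. A t-test is named in the authors' methods for data not otherwise specified, and not for these arrays. The counts past a fold of 2 with arrays left out were added after seeing the data.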

Additional observations from a re-analysis of the deposited data

Results flagged for a closer look

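The change after EMT differed between lines for 8 of the 10 AP-1 genes in at least 1 of 3 limma contrasts of the changes themselves, as it did for 60.2% of all genes, and the values are differences of log2 changes. HCC827 lay below A549 for FOS (-1.43, adjusted p = 0.0016), FOSB (-0.55, adjusted p = 0.0285), ATF3 (-0.58, adjusted p = 0.00788), BATF3 (-1.86, adjusted p = 1.00e-07) and MAFF (-1.11, adjusted p = 9.11e-07). It lay above A549 for FOSL2 (1.05, adjusted p = 4.52e-07) and JUND (0.38, adjusted p = 0.00809). NCI-H358 lay above A549 for FOSL2 (1.24, adjusted p = 6.47e-08), JUN (1.11, adjusted p = 0.000318) and JUND (0.72, adjusted p = 3.67e-05), and below it for FOSB (-0.85, adjusted p = 0.00146) and MAFF (-1.56, adjusted p = 1.46e-08). NCI-H358 lay above HCC827 for FOS (1.18, adjusted p = 0.0073), JUN (0.97, adjusted p = 0.00122), JUND (0.34, adjusted p = 0.0203), ATF3 (0.72, adjusted p = 0.00182) and BATF3 (2.17, adjusted p = 2.22e-08), and below it for MAFF (-0.45, adjusted p = 0.006). The FOSB difference of HCC827 and A549 was lost without the 3 arrays numbered apart (limma adjusted p = 0.051). It was also lost in 4 of 18 fits without a single array. The JUND difference of NCI-H358 and HCC827 was lost without those 3 arrays (limma adjusted p = 0.0811) and in 2 of the 18 fits. FOS, FOSB and ATF3 were dim probe sets. The groups of 3 arrays are too small for a test of single outlying arrays.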

How the results depend on the processing

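No paired analysis was possible because the labels give no replicate numbers, and those used here follow only the order of the samples. The number of arrays limits the precision, and no cause of the shifts below was tested. At the study's thresholds the counts of AP-1 genes that changed were 0, 1 and 0 in A549, HCC827 and NCI-H358, 0 rose and 0 fell in all 3 lines, and 0, 0 and 0 differences between lines were called, since the fold and p required are stricter. There 1, 1 and 1 of the leucine zipper relatives, 0, 0 and 0 of the kinases and coactivators, 1, 1 and 1 of the immediate early genes and 4, 6 and 3 of the targets were called, against 4, 6 and 8, 9, 10 and 10, 15, 12 and 11, and 16, 16 and 17 at an adjusted p below 0.05. With a fold change over 2 added, 2, 4 and 2 AP-1 genes changed, 1 (JUN) rose and 0 fell in all 3 lines, and 4, 3 and 2 differences were called. With arrays also left out, a choice made after seeing the data, the counts past this fold were 1 to 3 in A549, 3 to 4 in HCC827 and 2 in NCI-H358, with 0 or 1 in all 3 lines. The share of all genes past this fold in all 3 lines is not given. BATF3 in HCC827 also fell short of the fold of 5 with array weights (-2.21), with median centring (-2.27) and without the 3 arrays numbered apart (-2.23). By the t-test 8, 7 and 5 genes changed at its unadjusted threshold in A549, HCC827 and NCI-H358, where 9040, 8645 and 8917 of all 19849 genes did. After Benjamini-Hochberg adjustment 7, 5 and 5 changed, beside 7290, 6879 and 7142 of all genes, and 0 fell in all 3 lines. FOS, FOSL1 and JUND in HCC827 and FOSL2 in A549 were then no longer called, so FOSL2 did not count as higher in all 3 lines. Signs turned only in values that were not called. JUNB, NCI-H358 minus HCC827, was -0.072 with array weights, -0.013 with median centring and -0.095 without the 3 arrays numbered apart, and JUND in NCI-H358 was -0.0059 without those arrays. Leaving out single arrays gave -0.10 to 0.31 for FOS in A549 and -0.40 to 0.0084 for its NCI-H358 minus A549 difference. The same gave -0.025 to 0.31 for FOSL1, NCI-H358 minus A549, -0.058 to 0.31 for JUN, HCC827 minus A549, -0.084 to 0.069 for JUNB, NCI-H358 minus HCC827, and -0.029 to 0.031 for JUND in NCI-H358. The counts of AP-1 genes that changed were then 8 to 8 in A549, 7 to 8 in HCC827 and 5 to 6 in NCI-H358, 3 to 3 rose and 0 to 1 fell in all 3 lines, and 6 to 8, 5 to 6 and 5 to 6 differences were called. With array weights 1 call was lost, the FOSB difference of HCC827 and A549, and 2 were gained, of FOSL2 between NCI-H358 and HCC827 (0.25) and of JUNB between NCI-H358 and A549 (-0.23). Median centring brought ATF3 in NCI-H358 just past the threshold at 0.28 (limma adjusted p = 0.0498). The filter on dim probe sets kept 12083 genes and 7 of the 10 members, leaving out FOS, FOSB and ATF3, and with it the JUNB difference of HCC827 and A549 was called (limma adjusted p = 0.043). The fit per line changed no call of a member's EMT change and gives no difference between lines. The intensity trend changed no call of an EMT change or of its difference between lines. The trend and centring gave 26 and 25 differing neighbour pairs against 23 of 50. The share of such pairs over all genes is given only for the main fit, 30.5%.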
